A study of Mus musculus with 4 samples.

Results

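RNA of 6 genes for histone chaperones was followed in mouse embryonic stem cells: Set, Anp32a, Anp32b, Anp32e, Nap1l1 and Nap1l4. These 6 genes, out of 24116 in the count table, were found by matching Entrez gene numbers to symbols, and all 6 were among the 14194 genes with enough counts to be tested. They were selected on their names, but with the fold changes of knockout over wild type in these same libraries already known, so that contrast is given for them as a description and supports nothing. The study set 2 libraries labelled Kdm2a knockout against 2 wild-type libraries. Both groups are labelled as strain 12910la and were grown with serum and LIF on gelatin, without feeder cells being named. The knockout line came from a Kdm2a guide RNA, sorting of GFP-positive cells and expansion of a single clone, so genotype and clone cannot be told apart. The titles and the protocol say knockout, while the genotype label of the same samples says that Kdm2a was knocked down.

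Histone chaperones bind histones outside nucleosomes, shield their charge and hand them to DNA or to other factors. SET, also called TAF-I or I2PP2A, and the NAP1 proteins share a fold and carry H2A-H2B dimers and linker histones, while the ANP32 proteins combine leucine-rich repeats with an acidic tail. SET and ANP32A also inhibit protein phosphatase 2A (PP2A) and mask histone tails from acetyltransferases, and ANP32E removes the variant H2A.Z from chromatin. Kdm2a, the gene targeted here, encodes a demethylase of histone H3 lysine 36 whose CXXC zinc finger binds unmethylated CpG.

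The libraries were of like depth, with 18844246 to 19056529 counts each. Kdm2a RNA was not lower in the knockout libraries, at 194 and 261 CPM (counts relative to the library total, scaled between libraries by the TMM method) against 151 and 184 CPM in wild type, so every direction below rests on the labels. Over the tested genes, knockout 1 correlated less with knockout 2 (r = 0.952) than with wild type 1 (r = 0.984) or wild type 2 (r = 0.978). For knockout 2, r was 0.938 with wild type 1 and 0.959 with wild type 2, and for the wild-type pair it was 0.968. Each r runs across genes of a library pair, so it has no replicates behind it. All 8 embryonic stem cell markers passed the filter, with summed levels of 4898 to 6064 CPM in knockout and 5681 to 5869 CPM in wild type. The summed levels of fibroblast markers were 29.9 to 62.9 CPM in knockout and 37.3 to 89.5 CPM in wild type. Of these 8 markers, 3 passed the filter (Col1a1, Thy1 and Pdgfrb) and 1 was at 0 in every library. Trophoblast markers summed to 55.6 to 103 CPM in knockout and 41.6 to 83.3 CPM in wild type. Of this Tfap2c alone gave 43.5 and 75.0 CPM in knockout and 66.3 and 23.1 CPM in wild type. Cdx2 and Elf5 had 0 to 2 counts in each library. Neural markers summed to 124 to 167 CPM in knockout and 95.9 to 125 CPM in wild type. Of this Tubb3 alone gave 78.4 and 87.4 CPM in knockout and 54.5 and 84.1 CPM in wild type. Primitive endoderm and mesoderm markers stayed at or below 18.0 CPM in every library. The part of such cells in the results was not tested, and in bulk RNA fewer cells of a type and less RNA per cell cannot be told apart.

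Set was the gene of the 6 whose knockout libraries lay apart from the wild-type libraries. It had 20800 and 21678 counts in knockout libraries 1 and 2, against 13832 and 12452 counts in wild-type libraries 1 and 2. In CPM these were 1087 and 1192 in knockout, against 723 and 646 in wild type. Both knockout values lay above both wild-type values, and the gap between the groups was wider than the gap inside either one. The mean was 1139 ± 74.3 CPM in knockout and 684 ± 54.5 CPM in wild type (SD, n = 2 each). The log2 fold change was 0.74 (SE 0.20), which is 1.67-fold with a range of 1.45 to 1.91 at 1 SE. It ran from 0.66 to 0.82 when each library was left out in turn. Its sign could hardly turn there, because both knockout values lay above both wild-type values.

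The edgeR quasi-likelihood test across all genes called none of them at an adjusted p under 0.05, so 0% of 14194 genes and 0 of the 6 chaperone genes were called, each with adjusted p = 1.00. Without that adjustment 242 genes had p under 0.05, while DESeq2 called 2 genes and limma-voom 0, none of the 6 among them. Both knockout libraries lay above both wild-type libraries in 11.7% of the tested genes and below both in 12.7%. Of the 6 chaperone genes 1 lay above, Set, and 0 lay below, and a single gene of 6 does not stand out from that background. By absolute fold change Set ranked 1469 among the 14194 genes. The labels do not name separate cultures for the 2 libraries that share a label, so these p-values may measure technical spread alone.

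**Figure D1:**
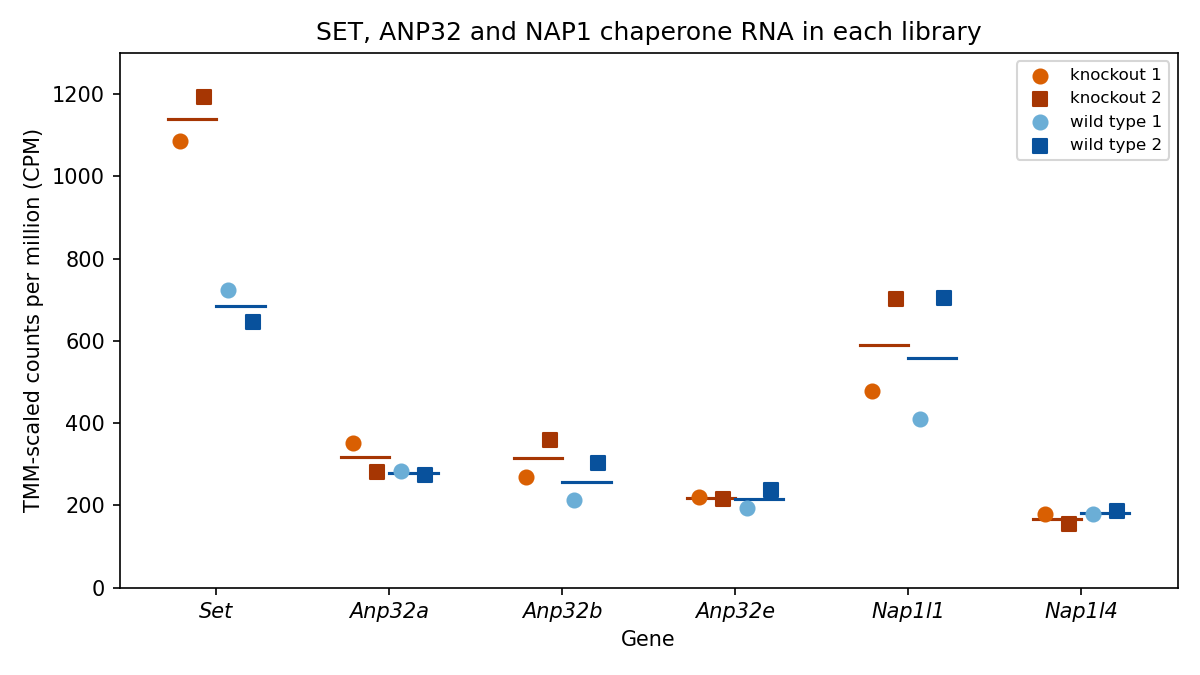
TMM-scaled CPM (vertical axis) of the 6 chaperone genes (horizontal axis), with 1 point for each library and a line at each group's mean. Set lies at 1087 and 1192 CPM in knockout and 723 and 646 CPM in wild type, while the libraries of the other 5 genes overlap.

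Set lies on chromosome 2 (Entrez gene 56086, GRCm38.p6, 30061996 to 30072577, plus strand) and has a pair of annotated starts, which give the SET forms that differ at their first residues. Gene counts join both forms, so their balance was not analysed here. Promoters are shown because the CXXC finger of the targeted enzyme binds CpG. The stretch from 250 to 51 bases before a start was read from RefSeq on GRCm38.p6 for 6 starts of 5 genes (Nap1l4 is named only). The Nap1l1 window (chr10:111472977-111473176) lies within the annotated span of that gene, and the upstream Set window overlaps an annotated Set exon. In the windows printed below every CG is in capitals.
Set, downstream start, chr2:30066224-30066423, plus strand: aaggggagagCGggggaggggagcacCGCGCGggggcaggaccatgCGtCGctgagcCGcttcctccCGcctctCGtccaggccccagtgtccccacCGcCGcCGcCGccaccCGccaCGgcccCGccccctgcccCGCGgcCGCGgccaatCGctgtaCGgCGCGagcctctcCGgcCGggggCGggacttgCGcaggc
Anp32b, chr4:46450676-46450875, plus strand: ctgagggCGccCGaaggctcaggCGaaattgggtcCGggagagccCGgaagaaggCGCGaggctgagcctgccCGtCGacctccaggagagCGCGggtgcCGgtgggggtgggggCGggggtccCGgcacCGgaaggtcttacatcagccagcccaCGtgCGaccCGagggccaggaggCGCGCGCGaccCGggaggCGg
Anp32e, chr3:95929007-95929206, plus strand: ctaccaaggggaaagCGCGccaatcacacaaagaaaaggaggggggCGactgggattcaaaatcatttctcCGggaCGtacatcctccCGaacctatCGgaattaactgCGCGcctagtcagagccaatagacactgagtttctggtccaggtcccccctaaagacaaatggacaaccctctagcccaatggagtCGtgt
The Set window holds 28 CG, the Anp32b window 24 and the Anp32e window 10. At least as many CG occur in 3.04%, 5.60% and 29.3% of the 32841 RefSeq windows of the same 200 bases, whose median is 4. The other windows hold 13 CG (upstream start of Set), 17 (Anp32a) and 17 (Nap1l1), and at least 1 CG is found in 89.1% of all windows. All RefSeq windows were counted whatever the level of their gene, and genes as abundant as the 6 were not taken separately. These shares therefore do not set the 6 genes apart from other expressed genes.

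The promoter windows also differ in the CCAAT motif, counted as CCAAT or its complement ATTGG, which 28.4% of all windows hold. Anp32e has 3, Anp32a has 2, and Anp32b, Nap1l1 and the downstream start of Set have 1 each, whereas the upstream start of Set has 0. The motif TATAAA, searched on both strands and present in 9.14% of all windows, is in none of the 6 windows. The windows end 51 bases before the start, so a TATAAA nearer the start would not be seen. Whether these promoters lack one was therefore not tested. GGGCGG, also searched on both strands and present in 24.6% of all windows, occurs 2 times at the downstream start of Set, once at its upstream start and once each in Anp32a and Anp32b, and its matches contain a CG. Such matches describe the letters only, and no relation to the fold changes was tested.

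Set was a larger share of the chaperone counts in the knockout libraries, a measure that needs no scaling between libraries. This share rests on the same Set counts as the fold change, so it is not separate evidence. Set made up 42.0% (95% exact binomial interval 41.6 to 42.5) and 41.0% (40.6 to 41.4) of the counts of the 6 genes in knockout libraries 1 and 2. In wild-type libraries 1 and 2 it made up 36.1% (35.6 to 36.6) and 27.5% (27.1 to 27.9). These intervals cover counting error only, and wild type 2 lay farther from wild type 1 than either knockout library did. Against Anp32a, which acts with SET in the inhibitor of histone acetylation, there were 3.10 and 4.22 Set counts per Anp32a count in knockout and 2.56 and 2.37 in wild type. Both ratios were higher in knockout, but against Nap1l1 the groups overlapped, with 2.28 and 1.70 in knockout and 1.76 and 0.917 in wild type.

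**Figure D2:**
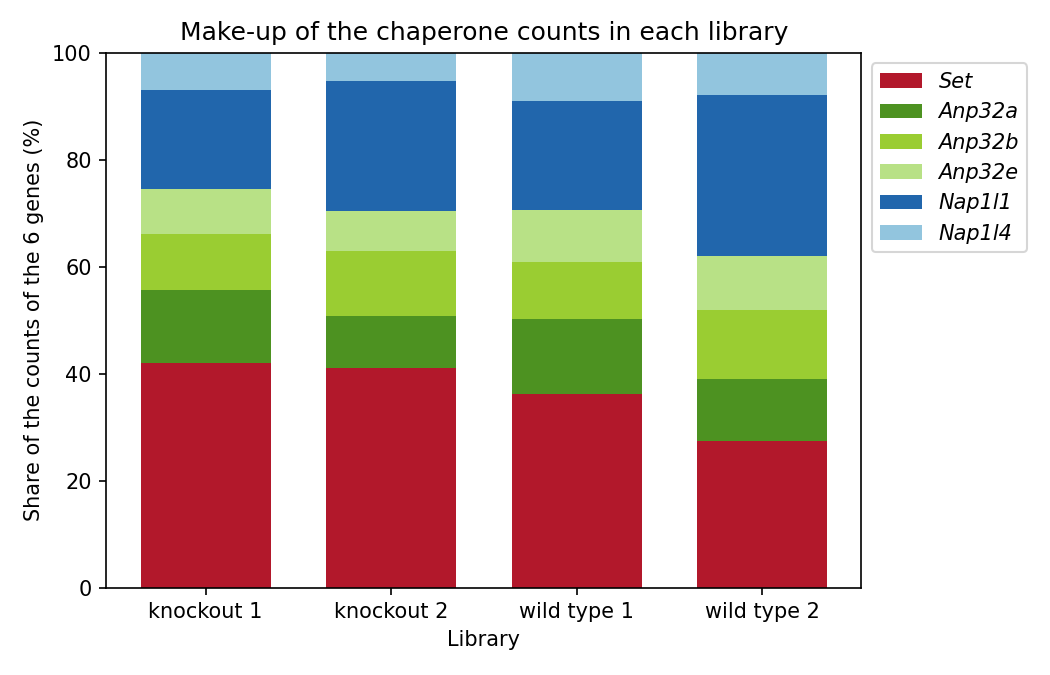
Share of each gene in the summed counts of the 6 chaperone genes (vertical axis, percent) for each library (horizontal axis). Set takes 42.0% and 41.0% in knockout libraries 1 and 2, and 36.1% and 27.5% in wild-type libraries 1 and 2, while Nap1l1 takes 30.0% in wild-type library 2.

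The ANP32 genes did not separate the groups. Anp32a (Entrez gene 11737, chromosome 9, 62341343 to 62378804), for the PP2A inhibitor also called pp32, had 6710 and 5132 counts in knockout libraries 1 and 2, against 5409 and 5261 in wild-type libraries 1 and 2. In CPM these were 351 and 282 in knockout, against 283 and 273 in wild type. Knockout 1 alone stood high, and knockout 2 lay between the wild-type libraries. The log2 fold change was 0.19 (SE 0.21), and 0.02 without knockout 1.

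Anp32b (Entrez gene 67628, chromosome 4, 46450926 to 46472657) encodes a relative of ANP32A, also called PAL31. It had 5169 and 6507 counts in knockout, against 4080 and 5832 in wild type, or 270 and 358 CPM in knockout and 213 and 302 CPM in wild type. In both groups library 2 was the higher, 1.32 times library 1 in knockout and 1.42 times in wild type, and the groups overlapped. Its log2 fold change of 0.28 (SE 0.26) was the second largest of the 6, and it fell between 0.05 and 0.56 with 1 library left out, lowest without wild type 1 or knockout 2.

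Anp32e (Entrez gene 66471, chromosome 3, 95929245 to 95947387), for the chaperone that takes H2A.Z off chromatin, was the most even of the ANP32 genes. It had 4232 and 3937 counts in knockout, against 3700 and 4584 in wild type. Its levels of 221 and 216 CPM in knockout lay between the 193 and 238 CPM of wild type. The log2 fold change was 0.02 (SE 0.21), and its sign turned with upper quartile scaling, with library totals alone and without wild type 1.

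The NAP1 genes overlapped as well, and Nap1l1 varied more within a group than between groups. Nap1l1 (Entrez gene 53605, chromosome 10, 111472882 to 111498150), for the widespread carrier of H2A-H2B, had 9139 and 12784 counts in knockout libraries 1 and 2, against 7869 and 13585 in wild-type libraries 1 and 2. In CPM these were 478 and 703 in knockout, against 411 and 704 in wild type. Libraries numbered 2 were high and libraries numbered 1 low in both groups, with ratios of 1.47 in knockout and 1.71 in wild type. The log2 fold change was 0.08 (SE 0.32), the widest SE of the 6. It was -0.22 without knockout 2 and -0.26 without wild type 1, and 0.53 without wild type 2.

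Nap1l4 (Entrez gene 17955, chromosome 7, 143513579 to 143549882, minus strand), for the related chaperone NAP2, was the member with a negative fold change. It had 3418 and 2805 counts in knockout, against 3405 and 3575 in wild type, or 179 and 154 CPM in knockout and 178 and 185 CPM in wild type. Knockout 2 was the low library, and knockout 1 lay between the wild-type libraries. The log2 fold change was -0.13 (SE 0.21), and -0.02 without knockout 2. Over the 6 genes the median was 0.13, beside 0.00 over all tested genes, and it was 0.36 without wild type 2, 0.05 without knockout 2 and -0.03 without wild type 1.

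**Figure D3:**
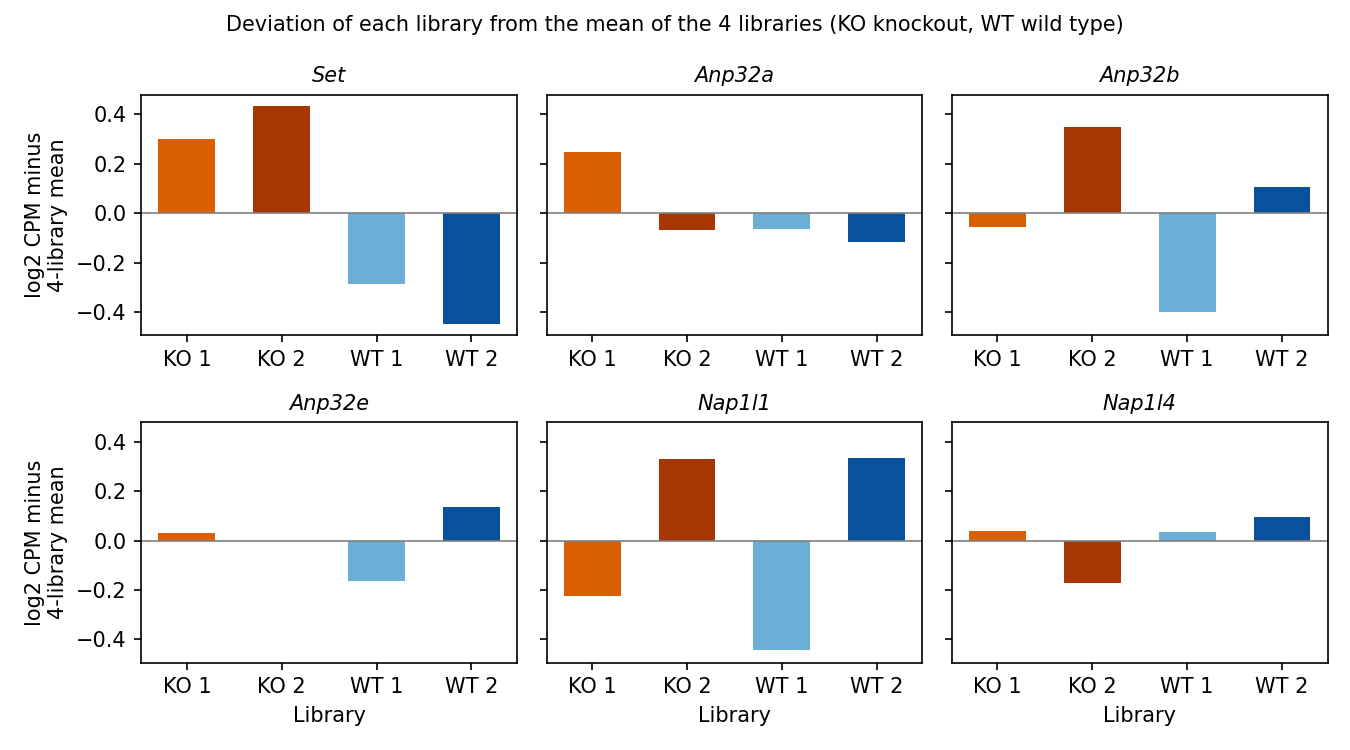
Deviation of each library's log2 CPM from the mean of the 4 libraries (vertical axis) for each gene, with 1 bar for each library (KO knockout, WT wild type). For Set both knockout bars are positive and both wild-type bars negative, while for Nap1l1 library 2 is at 0.33 in knockout and 0.34 in wild type.

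The 6 genes therefore did not share one pattern over the 4 libraries. By the distance between their deviations in log2 CPM, Anp32e and Nap1l4 were closest (0.26), followed by Anp32b and Nap1l1 (0.29) and by Anp32a and Nap1l4 (0.33). Set and Nap1l1 were the farthest apart (0.96). Among 7701 other genes averaging 20 CPM or more, those nearest to the mean pattern of the 6 were Nuf2, a kinetochore protein (distance 0.02), Phkb, a subunit of phosphorylase kinase (0.02), Chd8, a chromatin remodeller (0.02), Rrp12, a ribosome biogenesis factor (0.03), and Ago1, an Argonaute protein (0.03). In each of these the knockout libraries lay above wild type, which holds for Set alone of the 6. Nearness to the mean is therefore not likeness to the single members. Nearest to Set alone, a choice made after its values were seen, were Rrp8 (0.12), a nucleolar methyltransferase, Zbtb12 (0.16), Fbxl19 (0.17), a CXXC F-box protein related to Kdm2a, Rpl6 (0.17), a ribosomal protein, and Foxp4 (0.17), a forkhead factor. All these distances rest on 4 libraries.

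Compared per length of exon, Set was the most abundant of the 6. Its level was 349 ± 22.8 CPM per kb in knockout and 210 ± 16.7 CPM per kb in wild type (SD, n = 2 each), over 3262 bases of annotated exon. Anp32b followed, at 183 ± 36.1 CPM per kb in knockout and 150 ± 36.8 CPM per kb in wild type. Anp32a was at 138 ± 21.1 CPM per kb in knockout and 121 ± 3.04 CPM per kb in wild type, and Nap1l1 at 131 ± 35.2 CPM per kb in knockout and 123 ± 45.9 CPM per kb in wild type. Anp32b was above Anp32a in each library, though by as little as 124 against 123 CPM per kb in wild type 1, while the Nap1l1 libraries overlapped those of Anp32a in both groups. Nap1l4, at 69.6 ± 7.21 CPM per kb in knockout and 76.0 ± 2.20 CPM per kb in wild type, and Anp32e, at 66.8 ± 1.01 CPM per kb in knockout and 65.8 ± 9.58 CPM per kb in wild type, came last, and their libraries overlapped in knockout but not in wild type. By CPM without length, Nap1l1 moved to rank 2 and Anp32b to rank 4.

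Set and Nap1l1 share more sequence with other transcripts than the other members do, which bears on how far their counts can be trusted. Of the 50-base words of the longest coding transcript, 37.6% for Set also occur in GENCODE transcripts of 13 other genes. This was 25.6% for Nap1l1 (33 genes), 12.1% for Anp32b (3 genes) and 5.48% for Anp32a (1 gene, the pseudogene Anp32-ps), and 0% for Anp32e and Nap1l4. The reads are as long as these words per the labels, and how the authors treated reads matching several places is not given in the sources used here, so the counts of Set and Nap1l1 are uncertain in level. Its part in the higher Set counts was not tested. No exon of another annotated gene overlaps the exons of the 6.

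The partners of SET in its complex held a gene that also lay higher in both knockout libraries. Its wild-type libraries ran in the opposite order to those of Set, so the 2 patterns differed. Hmgb2, a high-mobility-group protein of the SET complex, had 8448 and 9992 counts in knockout, against 3750 and 6248 in wild type, or 441 and 549 CPM in knockout and 196 and 324 CPM in wild type. Both knockout libraries lay above both wild-type libraries, with a log2 fold change of 0.93 (SE 0.29) and adjusted p = 1.00 by edgeR, and 21.9% of its 50-base words are shared with other genes. Of the 13 genes listed as partners in the SET complex, in RNA binding by HuR and in nuclear export, 9 had a positive fold change, beside 50.5% of all tested genes, and 0 were called. Their median was 0.16, and 0.35 without knockout 1, 0.02 without knockout 2 and 0.27 without wild type 2. Both knockout libraries were above wild type for 4 (Hmgb2, Nme1, Kpnb1 and Ran) and below for 1 (Elavl1, which encodes HuR), beside 11.7% and 12.7% of all tested genes. The most abundant were Kpnb1, importin beta (0.13, SE 0.19), Parp1, a poly(ADP-ribose) polymerase (-0.14, SE 0.22), and Ran, the transport GTPase (0.15, SE 0.19), all as log2 fold changes. Crebbp, an acetyltransferase, was at 0.66 (SE 0.44), with 66.4 and 157 CPM in knockout and 53.8 and 87.8 CPM in wild type, which overlap.

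Other histone chaperones had a small median, though some fold changes neared that of Set. Of 27 tested, 19 had a positive fold change, beside 50.5% of all tested genes, and 0 were called. The median was 0.06, which was 0.14 without wild type 2, 0.02 without wild type 1 and 0.01 without knockout 1. Knockout libraries lay above wild type for 4 of them (Ubn2 and Cabin1 of the HIRA complex, the FACT subunit Ssrp1 and the importin Ipo4) and below for 1 (Asf1b, a carrier of H3-H4), beside 11.7% and 12.7% of all tested genes. The most abundant were the nucleolar proteins Npm1, at -0.06 (SE 0.19), and Ncl, at 0.20 (SE 0.23), and the H3-H4 carrier Nasp, at 0.29 (SE 0.25). The largest fold change was that of Ubn1, a HIRA partner, at 0.71 (SE 0.41), with 65.0 and 162 CPM in knockout and 66.5 and 71.9 CPM in wild type. Here knockout 2 alone stood high. Asf1a was next, at 0.62 (SE 0.35).

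The relatives of the NAP1 genes were mostly scarce. Among 8 tested members of the NAP1 and TSPY-like family, 5 had a positive fold change and 3 a negative one, and 0 were called. Over all tested genes 50.5% were positive. The groups overlapped in every one of the 8, while both knockout libraries lay above wild type in 11.7% of all tested genes and below in 12.7%. The median of 0.23 turned to -0.07 without knockout 2, and was 0.09 without wild type 1, 0.52 without knockout 1 and 0.47 without wild type 2. It was 0.02 under the filter of at least 1 CPM in 2 libraries, which leaves fewer of these genes. Nap1l2, Nap1l3 and Nap1l5 averaged 0.695, 1.92 and 0.546 CPM over the 4 libraries. Tspyl1, the most abundant, averaged 87.0 ± 8.80 CPM in knockout and 97.0 ± 6.13 CPM in wild type, and Tspyl2 averaged 35.0 ± 1.79 CPM in knockout and 30.4 ± 9.70 CPM in wild type (SD, n = 2 each).

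Genes around the substrate of ANP32E had a small median fold change, and the H2A.Z genes themselves went opposite ways. Of 16 genes for H2A.Z and its exchange complexes, 13 had a positive fold change, beside 50.5% of all tested genes, 0 were called and the median was 0.12. Knockout libraries lay above wild type for 4 (Znhit1, Dmap1, Kat5 and Brd8) and below for 0, beside 11.7% and 12.7% of all tested genes. H2az1, which encodes the main form of H2A.Z, averaged 406 ± 91.3 CPM in knockout and 321 ± 55.8 CPM in wild type (SD, n = 2 each), and its libraries overlapped. H2az2, for the second form, averaged 93.3 CPM in knockout and 113 CPM in wild type, a log2 fold change of -0.28 (SE 0.34), and overlapped too. Srcap, the exchange ATPase, was at 0.40 (SE 0.26), Ep400, another ATPase of this kind, at 0.10 (SE 0.20), and Ino80, a remodelling ATPase, at 0.51 (SE 0.41).

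PP2A, the phosphatase that SET and ANP32A inhibit, showed no lean either way. Of 23 tested subunits and regulators, 12 were positive and 11 negative, 0 were called and the median was 0.01, and -0.03 to 0.06 with 1 library left out. Both knockout libraries were above wild type for 1, the scaffold subunit Ppp2r1a, with 349 and 350 CPM in knockout and 330 and 327 CPM in wild type. Thus 1 of 23 lay above and 0 below, beside 11.7% and 12.7% of all tested genes. The catalytic subunit Ppp2ca was at 0.04 (SE 0.22) and the regulatory subunit Ppp2r5c at -0.21 (SE 0.25). Ppp2r2c had the largest fold change, -0.85 (SE 0.68), with 32.8 and 5.83 CPM in knockout and 37.7 and 31.9 CPM in wild type, a difference carried by knockout 2. Strn, a striatin, was at 0.23 (SE 0.30).

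Nuclear import receptors, which bring histones to the nucleus, likewise showed small values. Of 9 tested, 4 were positive and 5 negative, with 0 called and a median of -0.05, which turned to 0.10 without wild type 2. Both knockout libraries lay below wild type for Ipo5, at 868 and 853 CPM in knockout and 886 and 890 CPM in wild type, and for Kpna6, at 219 and 160 CPM in knockout and 240 and 221 CPM in wild type. Thus 2 of 9 lay below and 0 above, beside 12.7% and 11.7% of all tested genes. Kpna2, an importin alpha, was at 0.11 (SE 0.22), and Ipo7 at 0.05 (SE 0.20).

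**Figure D4:**
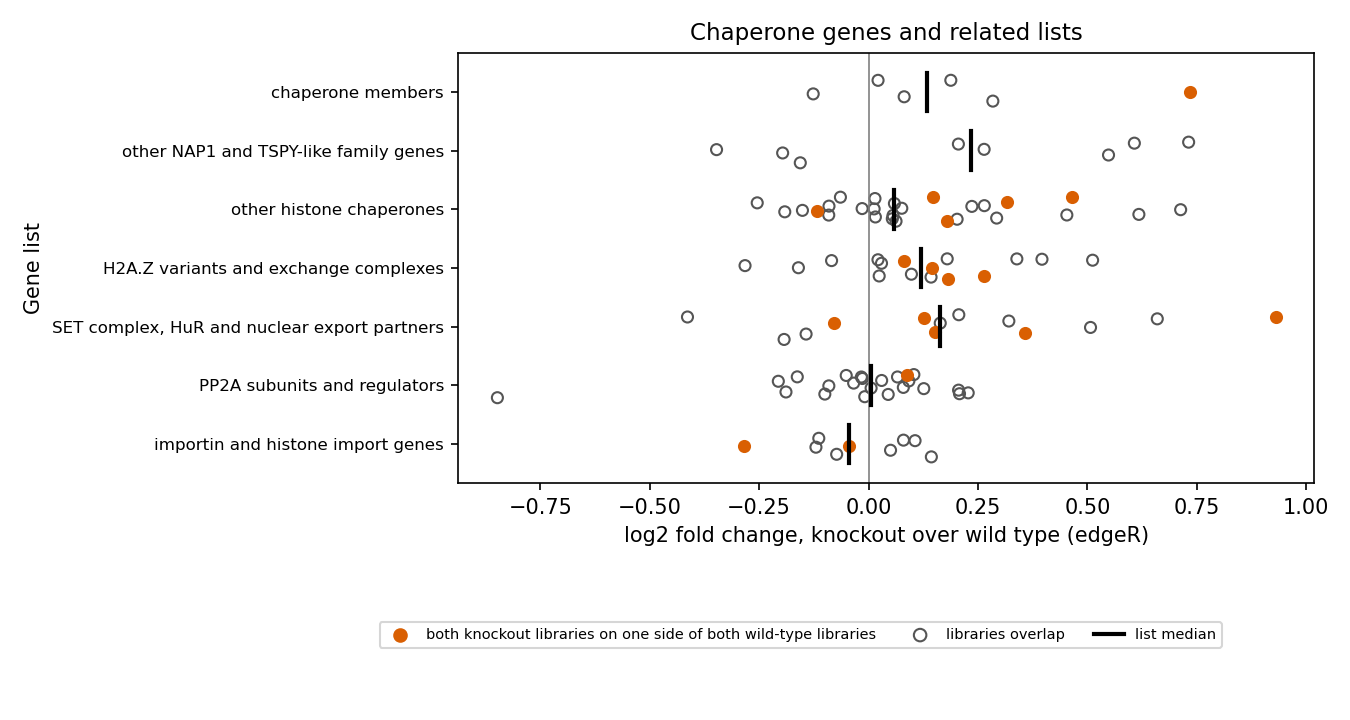
Log2 fold change of knockout over wild type (horizontal axis) for the 6 chaperone genes and for 6 related gene lists (rows), with 1 point for each gene, filled where the knockout pair lies wholly above or wholly below the wild-type pair, and a bar at each median. Set at 0.74 and Hmgb2 at 0.93 are the filled points farthest to the right.

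The neighbours of Set on chromosome 2 had fold changes on both sides of 0. Of 15 tested genes within 200 kb, 6 had a positive fold change and the median was -0.09, with 2 above wild type in both knockout libraries (Odf2 at 0.26 and Gle1 at 0.27) and 3 below (Cercam at -0.78, Phyhd1 at -0.22 and Endog at -0.11), beside 11.7% and 12.7% of all tested genes. Gle1, a factor of mRNA export, had 1855 and 1978 counts in knockout, against 1623 and 1662 in wild type. For the other chaperone genes the medians of the tested neighbours ran from -0.30 (2 genes at Anp32a) to 0.25 (3 genes at Nap1l1). The neighbours of Nap1l4 include genes of an imprinted domain that went both ways, with Cdkn1c at 0.27 (SE 0.56), Phlda2 at 0.22 (SE 0.54), Slc22a18 at -0.73 (SE 0.74) and Kcnq1 at -0.83 (SE 1.02). This window was chosen after the values of Set were seen.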

How the data were processed

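RNA-seq of 2 knockout and 2 wild-type libraries was analysed. The authors deposited raw counts of reads for each gene. The submitters' processing notes name HISAT2, featureCounts and mm10; their versions, the annotation and the strand setting are not given there. Of 24116 genes, 24061 were matched to symbols through RefSeq (GRCm38.p6).

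Counts were tested with edgeR 4.0.16 (R 4.3.3): filterByExpr (14194 genes), TMM scaling, quasi-likelihood F test of genotype, Benjamini-Hochberg adjustment over all genes, threshold 0.05. SE is the absolute log2 fold change over the square root of F. Log2 CPM used a prior count of 2. DESeq2 1.42.0 and limma 3.58.1 (voom) were alternatives. Exon lengths and transcripts came from GENCODE M21, promoters from RefSeq.

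The members and lists were chosen with earlier results of these data known. The text names all 6 members and could name, for each related list, the 3 genes of highest CPM and the 2 of largest change at 5 CPM or more. The genes separating the groups, Nap1l2, Nap1l3, Nap1l5, H2az2 and the neighbours fall outside the rule for names and were added after their values were seen.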

Additional observations from a re-analysis of the deposited data

How the results depend on the processing

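The log2 fold change of Set ran from 0.66 to 0.82 over the 13 alternatives. Both knockout values of Set lay above both wild-type values, so leaving out a library or rescaling could hardly turn its sign. The held direction therefore adds no support. No alternative that kept all libraries called any of the 6 genes. The lowest adjusted p of Set was 0.286, without 1 library, and 0.888 otherwise. The count of 0 genes called became 2 with DESeq2 and 4 with the edgeR likelihood ratio test, and 0 to 91 with 1 library left out (91 without knockout 1 and 8 without knockout 2). Leaving out a library gave log2 fold changes of 0.02 to 0.34 for Anp32a, 0.05 to 0.56 for Anp32b, -0.12 to 0.19 for Anp32e, -0.26 to 0.53 for Nap1l1 and -0.24 to -0.02 for Nap1l4. The reversals were Anp32e with upper quartile scaling (-0.014), with library totals only (-0.024) and without wild type 1 (-0.12), and Nap1l1 without knockout 2 (-0.22) and without wild type 1 (-0.26), and the cause was not tested. With 1 library left out, the list medians ran from -0.033 to 0.36 for the 6 genes, 0.0097 to 0.14 for other histone chaperones, 0.017 to 0.35 for the SET complex list, -0.025 to 0.063 for PP2A genes, -0.060 to 0.10 for importins, -0.07 to 0.52 for the NAP1 and TSPY-like family and 0.09 to 0.15 for H2A.Z genes, where library totals only gave 0.075. The titles share the numbers 1 and 2, which no label ties to a culture or day. The differences of library 1 minus library 2 in the groups correlated at 0.35 across genes. A fit with the replicate number as a block called 0 genes, with 735 against 242 at an unadjusted p under 0.05, and put Set at 0.74. Lengths of the longest coding transcript, an alternative added after the data were seen, swapped ranks 3 and 4 (Anp32a and Nap1l1).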

Other observations

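Setbp1, which encodes a protein named for its binding to SET and which was looked up after its values were seen, was high in 1 library. It had 36 and 251 counts in knockout libraries 1 and 2, against 31 and 54 in wild-type libraries 1 and 2. Its log2 fold change of 1.82 (SE 0.89) was not called by edgeR (adjusted p = 1.00), and its groups overlapped.

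Hmgb1, the close relative of Hmgb2, was listed at 145 and 343 counts in knockout, against 513 and 162 in wild type, and 40.9% of its 50-base words also occur in transcripts of 132 other genes. Ciart, a repressor of the circadian clock and a neighbour of Anp32e, had 187 and 330 counts in knockout, against 122 and 136 in wild type, a log2 fold change of 1.05 (SE 0.43) that was not called (adjusted p = 1.00 by edgeR).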
